A study of Mus musculus with 18 samples.

Results

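The genes that encode MYC's dimerization network were examined for MYC binding in mouse liver tumours: Max, Mlx, Mlxip, Mlxipl, Mxd1, Mxd3, Mxd4, Mxi1, Mnt and Mga, 10 of the 21887 protein-coding genes with a position. They were chosen by name, with earlier results of these data known, so the counts below describe them and test nothing. A gene was counted as carrying MYC in a library when the summit of a peak, its highest point, lay inside the gene's RefSeq span or within 1 kb of either end. Tumours came from FVB mice with LAP-tta and TRE-MYC, a MYC transgene that is driven in the liver once doxycycline is withdrawn, and were taken at the time of death. All groups carry this MYC transgene and a floxed Arid1a allele. WT tumours had Arid1aflfl without Cre (mice about 55 days old). Het tumours had Arid1afl/+ with Alb-cre (about 70 days) and Homo tumours Arid1afl/fl with Alb-cre (about 100 days). Age changed together with the Arid1a dose over all genotypes and cannot be told apart from it. Cre cannot be told apart from the dose in comparisons with WT, whereas Het and Homo both carry it. Alb-cre acts in liver epithelial cells, and other cells of the tumour keep Arid1a. Each genotype had 3 libraries made with a MYC antibody, whose peak lists were analysed, and 3 input libraries. The design asks how MYC occupancy changes with the dose of Arid1a, whose product is the ARID subunit of the BAF form of the SWI/SNF chromatin remodeller.

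MAX is the obligate partner of MYC, and the MYC-MAX dimer binds the E-box CACGTG and activates genes of growth. MXD1, MXD3, MXD4, MXI1, MNT and MGA also pair with MAX, and they hold the same sites in a repressive state, the MXD proteins, MXI1 and MNT through SIN3 and histone deacetylases and MGA within a Polycomb complex, PRC1.6. MLX is the MAX-like partner of MondoA (encoded by Mlxip) and ChREBP (encoded by Mlxipl), activators that respond to glucose, and in liver ChREBP drives glycolytic and lipogenic genes.

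MYC peaks were listed at 8 of the 10 genes in at least 1 library, compared with 19.1% of all protein-coding genes, and at 6 in at least 2 libraries, compared with 10.5%. Mnt carried a peak in 6 of 9 libraries, Mga in 5 and Mlxipl in 4. Max, Mlxip and Mxi1 had a peak in 2 libraries each, Mxd3 and Mxd4 in 1, and Mlx and Mxd1 in none. The 35 peaks fell on 15 sites, where peaks that overlap by at least 1 bp are 1 site. Genes with long spans had more room for a peak. Of the 3 network genes of 50 kb or more (Mga, Mlxip and Mxi1) all had a peak, and in at least 2 libraries, compared with 24.0% and 12.7% of all genes of that length. Of the 5 genes of 10 to 50 kb (Max, Mlxipl, Mxd1, Mxd4 and Mnt) 4 had a peak and 3 had one in at least 2 libraries, compared with 21.7% and 11.9%. Of the 2 shorter genes, Mlx and Mxd3, 1 had a peak and 0 had one in at least 2 libraries, compared with 13.2% and 7.53%. No peak lay between 1 kb and 5 kb from a span, and the summit farthest outside one was 422 bp upstream of Mnt.

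The length of the peak lists differed widely, from 51 peaks in Homo replicate 2 to 4291 in WT replicate 3. The reads under each summit were solved from the authors' fold and p. The solution also gave an estimate of depth, from the lowest solved background and the shortest peak width of each list. By this estimate the input held 4.04 to 6.27 reads per kb in WT, 3.63 to 4.34 in Het and 3.37 to 3.69 in Homo. The MYC libraries held 7.80 to 15.2 over all groups. Each WT input was thus estimated deeper than each Homo input, and the Het and Homo inputs overlapped. In Homo replicate 1 only 2 peaks lay at the lowest background, compared with 270 in WT replicate 3. WT replicate 1 (92 peaks) and Homo replicate 2 had no peak at any of the 10 genes. The labels do not tie libraries to animals, so the spread within a genotype, and each p-value below, may be technical. MYC peaks do not measure expression, so the labelled tissue could be checked only in part: 3 of 6 hepatocyte markers had a MYC peak, and 0 of 6 immune, 0 of 6 endothelial and stellate, 0 of 4 cholangiocyte and 1 of 4 fetal liver markers. With a peak at 19.1% of all genes, counts this small do not identify a tissue, and without WT replicate 3 only 1 of the 6 hepatocyte markers had a peak in at least 2 libraries.

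**Figure D1:**
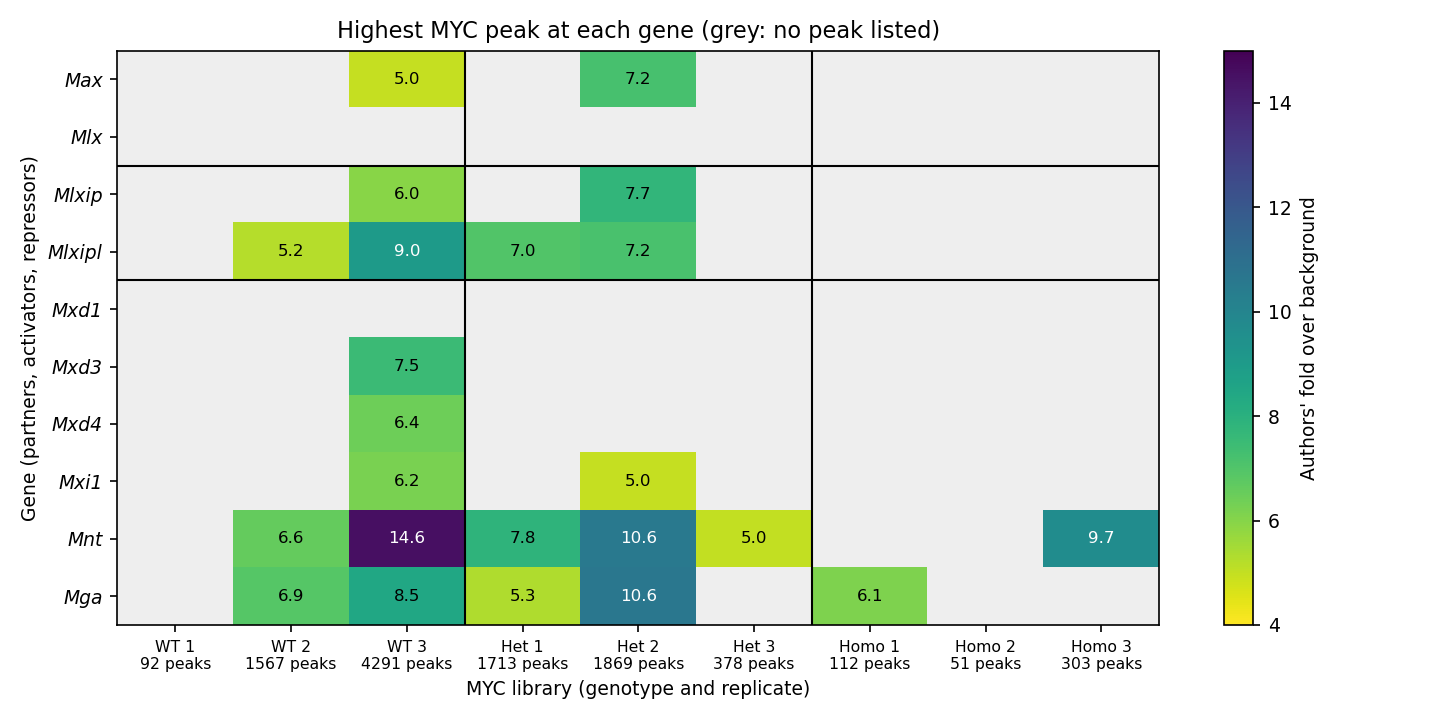
Highest MYC peak at each of the 10 genes (rows, with lines between partners, activators and repressors) in each of the 9 MYC libraries (columns, with the number of peaks in the list). Numbers and colours give the authors' fold over background, and grey means that no peak is listed; WT replicate 3 has a peak at 8 genes and Homo replicate 2 at none.

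The promoters below are shown because they hold the exact E-box CACGTG, printed in capitals. The first 4 had a MYC summit inside the printed window, and the fifth, Mlx, had no peak in any library. Each runs 5′ to 3′ on the gene's strand, from 250 bases before the annotated start to 50 after it, and is RefSeq sequence of GRCm38.p6, the assembly behind mm10.
Mnt (chr11:74830674-74830973, plus strand): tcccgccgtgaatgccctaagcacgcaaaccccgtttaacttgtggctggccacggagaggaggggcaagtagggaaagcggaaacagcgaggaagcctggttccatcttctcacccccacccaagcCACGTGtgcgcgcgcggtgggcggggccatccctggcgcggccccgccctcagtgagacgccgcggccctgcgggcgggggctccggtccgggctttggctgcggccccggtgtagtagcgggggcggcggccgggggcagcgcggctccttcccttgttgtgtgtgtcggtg
Max (chr12:76962199-76962498, minus strand): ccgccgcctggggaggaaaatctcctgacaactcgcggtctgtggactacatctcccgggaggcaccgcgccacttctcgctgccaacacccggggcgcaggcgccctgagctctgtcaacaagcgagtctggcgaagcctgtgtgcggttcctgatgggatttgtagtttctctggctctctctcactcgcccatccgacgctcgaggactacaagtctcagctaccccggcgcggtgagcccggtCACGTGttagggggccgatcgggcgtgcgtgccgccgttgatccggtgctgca
Mxd4 (chr5:34187661-34187960, minus strand): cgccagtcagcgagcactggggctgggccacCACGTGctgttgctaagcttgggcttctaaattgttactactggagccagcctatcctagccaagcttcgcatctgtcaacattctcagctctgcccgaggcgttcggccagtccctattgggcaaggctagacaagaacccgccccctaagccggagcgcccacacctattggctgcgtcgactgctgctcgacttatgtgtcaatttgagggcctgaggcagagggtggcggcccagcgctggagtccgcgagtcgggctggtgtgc
Mlxipl, upstream start (chr5:135089640-135089939, plus strand): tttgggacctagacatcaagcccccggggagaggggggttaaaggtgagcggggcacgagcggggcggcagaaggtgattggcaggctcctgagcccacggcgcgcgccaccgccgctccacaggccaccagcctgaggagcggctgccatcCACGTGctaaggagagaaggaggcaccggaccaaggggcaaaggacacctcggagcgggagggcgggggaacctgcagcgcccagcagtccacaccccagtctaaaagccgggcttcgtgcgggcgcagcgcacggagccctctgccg
Mlx (chr11:101087040-101087339, plus strand): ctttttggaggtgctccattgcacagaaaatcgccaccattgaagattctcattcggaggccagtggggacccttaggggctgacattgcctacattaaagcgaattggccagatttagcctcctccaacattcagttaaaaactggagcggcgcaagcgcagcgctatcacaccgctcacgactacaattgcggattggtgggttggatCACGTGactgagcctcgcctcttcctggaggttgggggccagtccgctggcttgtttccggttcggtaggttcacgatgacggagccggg

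All 10 genes were matched to promoter windows, 13 in all since Mlxipl has 2 annotated starts and Mxi1 has 3. CACGTG occurs in 5 of the 13 windows, compared with 7.84% of the 21263 promoter windows of protein-coding genes. A MYC summit lay inside 5 windows, and 4 of these hold CACGTG, at Mnt, Max, Mxd4 and the upstream start of Mlxipl. Over all protein-coding windows, CACGTG was found in 25.8% of those with a MYC summit in any library and in 6.36% of those without. The related sequence CACGCG, searched on both strands, was found in 43.9% and 9.53%, and among the 13 windows only in that of Mga. CATGTG, also on both strands, was found in 11.2% and 11.6%, and among the 13 only at the most downstream start of Mxi1, the remaining window with a summit. A match describes these letters and not a tested binding site. The recurrent peaks inside Mnt, Mga and Mlxipl lie outside the promoter windows, so their sequence was not searched.

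Max, the partner that MYC itself needs, carried 1 site just upstream of its start (chromosome 12, gene span 76937269 to 76962323, minus strand, mm10). The peak of WT replicate 3 (76962197 to 76962568) had a fold of 4.97 and stood at rank 2917 of 4291 by p, with 47 reads at a summit 172 bp upstream of the start. In Het replicate 2 the peak (76962357 to 76962582) had a fold of 7.22, rank 1054 of 1869 and 35 reads, and its summit lay 263 bp upstream. Both were in the lower parts of their lists, and the other 7 libraries listed no peak. The CACGTG printed above starts 3 bp before the start of Max, its centre 172 and 262 bp from these summits. Mlx, the parallel partner of the glucose-sensing branch (chromosome 11, 101086707 to 101092207), had no peak in any of the 9 libraries. Its promoter holds CACGTG 40 bp before the start. Of the 1666 protein-coding promoter windows with CACGTG, 1250 likewise held no MYC summit.

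Among the activators, Mlxipl (chromosome 5, 135089890 to 135139768, plus strand) carried a peak in 2 WT and 2 Het libraries and in 0 Homo libraries. Its main site lay inside the gene, 1411 to 1418 bp after the downstream of its 2 annotated starts, and the 4 summits fell within 7 bp of each other (135108302 to 135108309). Of these, WT replicate 2 had a fold of 5.22 (rank 914 of 1567, 55 reads) and WT replicate 3 a fold of 9.01 (rank 542 of 4291, 69 reads). Het replicate 1 had a fold of 6.97 (rank 464 of 1713, 94 reads) and Het replicate 2 one of 7.17 (rank 804 of 1869, 47 reads). The libraries with a peak were thus the 4 longest lists of the series, and none of the 5 shorter lists had one. A further peak in WT replicate 3 alone had its summit 16 bp before the upstream start, with a fold of 6.04, rank 3472 of 4291 and 27 reads, the fewest of the 35. ChREBP has a constitutive isoform, ChREBP-beta, that is made from an upstream first exon. Mlxip, which encodes MondoA (chromosome 5, 123394521 to 123457932, plus strand), had a peak upstream of its start in WT replicate 3 (fold 5.96, rank 2382 of 4291, summit 311 bp upstream) and in Het replicate 2 (fold 7.74, rank 721 of 1869, 356 bp upstream).

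Mnt, a widely expressed MAX-dependent repressor, was the most often bound of the 10 and had the most peaks, 15 on 5 sites (chromosome 11, 74830806 to 74845725, plus strand). The strongest site lay inside the gene, 6882 to 6924 bp after the start, and was listed in 2 WT, 3 Het and 1 Homo libraries with summits within 42 bp (74837806 to 74837848). In WT its fold was 6.59 in replicate 2 (rank 428 of 1567, 70 reads) and 14.6 in replicate 3 (rank 154 of 4291, 84 reads). In Het the folds were 6.32 in replicate 1 (rank 442 of 1713, 107 reads), 10.6 in replicate 2 (rank 199 of 1869, 66 reads) and 5.01 in replicate 3 (rank 225 of 378, 52 reads). In Homo replicate 3 the fold was 9.65 at rank 36 of 303, with 100 reads at the summit. It was the only site of the 15 listed in Het replicate 3 or in Homo replicate 3. Homo replicates 1 and 2 listed no peak at Mnt. Folds rank peaks only within a list, so a single Homo fold does not tell whether the site differed between genotypes. Of all protein-coding genes, 0.813% had a peak in at least 6 libraries.

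The other 4 Mnt sites were found only in the 3 longest lists. A site 7718 to 7789 bp after the start had folds of 9.29 in WT replicate 3, 7.84 in Het replicate 1 and 7.95 in Het replicate 2, and one 1241 to 1396 bp after the start had folds of 6.93, 6.12 and 6.64 in the same libraries. At the promoter, WT replicate 3 had a fold of 7.75 with the summit 42 bp before the start, and Het replicate 1 a fold of 6.64 with the summit 132 bp before it. These summits lay 78 and 12 bp from the centre of the CACGTG printed above. Het replicate 1 also had a weak peak 540 bp upstream (fold 4.53, rank 1660 of 1713), the lowest fold of the 35. In each library that listed both, the promoter peak of Mnt ranked below the strongest peak inside the gene (rank 1590 against 154 in WT replicate 3, and 900 against 442 in Het replicate 1).

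Mga, the largest protein of the family, had 2 sites (chromosome 2, 119872503 to 119970129, plus strand). The first lay 743 to 864 bp inside the RefSeq span, 23861 to 23982 bp before the only start in the promoter table, and was listed in 2 WT, 2 Het and 1 Homo libraries. In WT, replicate 2 had a fold of 6.92 (rank 675 of 1567, 49 reads) and replicate 3 one of 6.29 (rank 1377 of 4291, 60 reads, a broad peak of 747 bp). In Het, the fold was 4.98 in replicate 1 (rank 850 of 1713, 101 reads) and 10.6 in replicate 2 (rank 322 of 1869, 48 reads). Homo replicate 1 had a fold of 6.11 at rank 86 of 112, with 38 reads. Homo replicates 2 and 3 listed no peak at Mga, so Homo again had a single fold, with the same limit. The second site lay 307 to 392 bp after the table's start and was listed in WT replicate 3 (fold 8.46, rank 1122 of 4291) and Het replicate 1 (fold 5.30, rank 1347 of 1713).

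**Figure D2:**
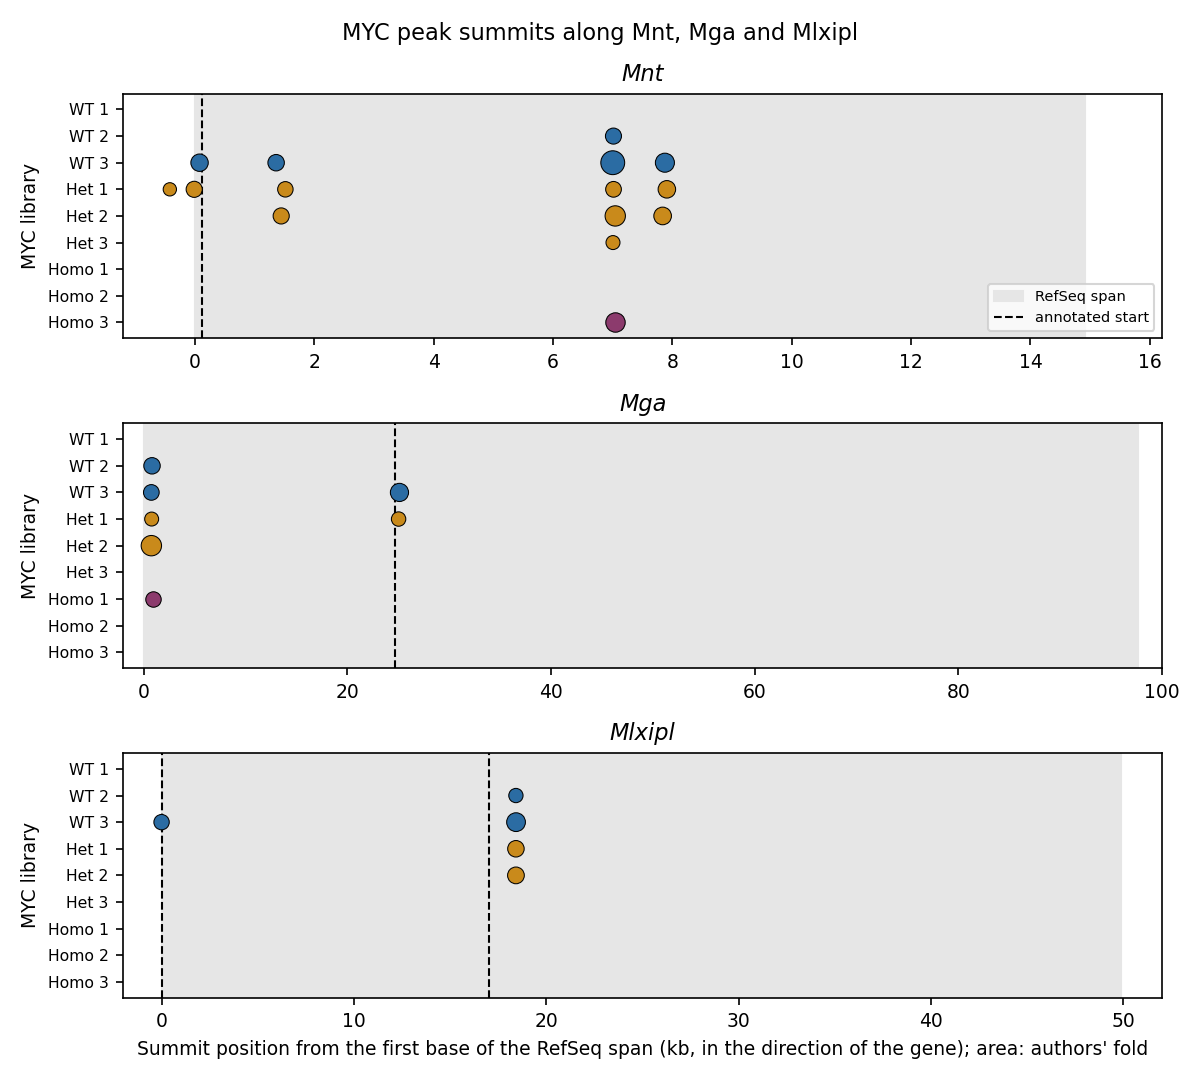
Summits of the MYC peaks along Mnt, Mga and Mlxipl (horizontal axis, kb from the first base of the RefSeq span) in each MYC library (vertical axis); colours mark the genotype, dot area the authors' fold, grey the span and dashed lines the annotated starts. The site most often listed lies 7000 to 7042 bp into Mnt, 743 to 864 bp into Mga and 18412 to 18419 bp into Mlxipl.

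The sites at the MXD genes and Mxi1 were each listed in a single library. Mxd1 and Mxd4 are known for rising as cells differentiate, and Mxd3 for expression in dividing cells. Mxd1 (chromosome 6, 86647044 to 86669234) had no peak. Mxd3 (chromosome 13, 55325170 to 55329900) and Mxd4 (chromosome 5, 34176580 to 34187710), both on the minus strand, had a peak in WT replicate 3 only. The Mxd3 peak had a fold of 7.52 and rank 2004 of 4291, with its summit 292 bp upstream of the start. That of Mxd4 had a fold of 6.43 and rank 2500, and its summit lay 14 bp from the centre of the CACGTG printed above. Mxi1 (chromosome 19, 53310128 to 53373293, plus strand) was counted in 2 libraries, but at different places. WT replicate 3 had a peak 3767 bp after its first start (fold 6.22, rank 2093), within 1 kb of another gene, Gm30541, and Het replicate 2 one 18 bp before its most downstream start (fold 4.99, rank 1780 of 1869).

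Activators and repressors were compared as classes by their counts only, since both are small and were chosen by name with earlier results known. The activators Mlxip and Mlxipl both had a peak, in 6 of 18 gene-by-library combinations (33.3%). Of the repressors, 5 of 6 had one, in 15 of 54 combinations (27.8%), and Mnt and Mga made up 11 of these 15. The shared partners Max and Mlx had 2 of 18 (11.1%). Over all protein-coding genes 4.83% of such combinations had a peak. By genotype, the activators had 3, 3 and 0 calls and the repressors 7, 6 and 2 in WT, Het and Homo, so that both Homo calls were at repressors. The share over all protein-coding genes was 8.25%, 5.61% and 0.631% in these genotypes. The 2 Homo calls came from different libraries and genes, and this difference between classes was not tested.

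**Figure D3:**
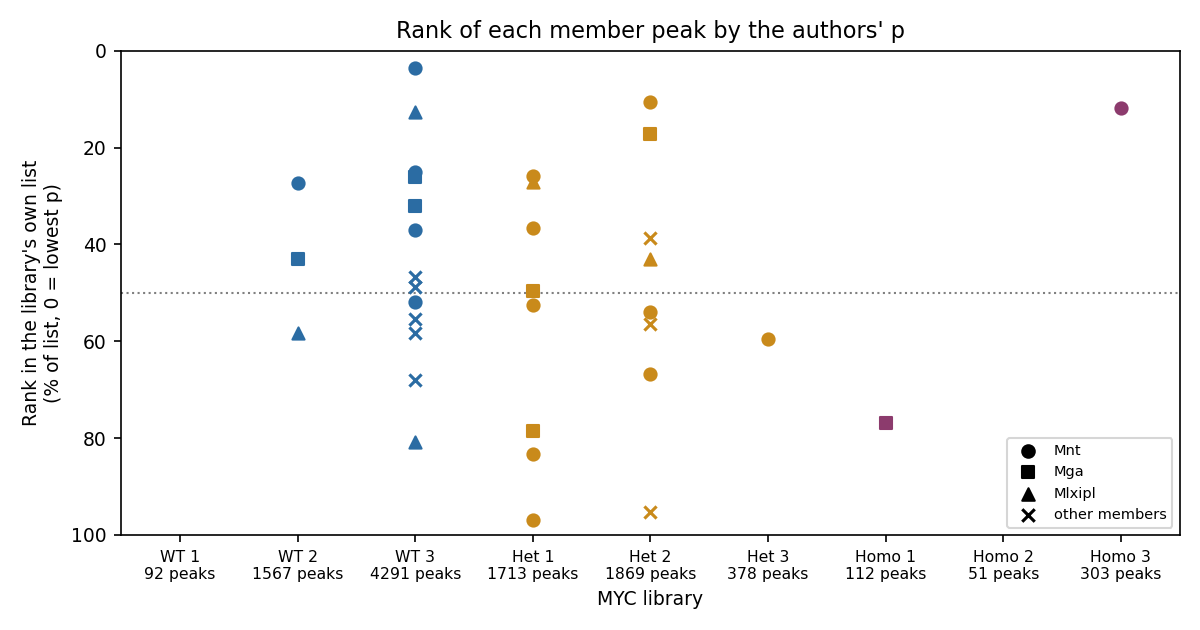
Rank of each of the 35 peaks by the authors' p within the list of its own library (vertical axis, percent of the list, 0 at the top being the lowest p) for each MYC library (horizontal axis); colours mark the genotype and symbols the gene. The peaks spread over the lists with a median of 48.8%, from 3.59% for Mnt in WT replicate 3 to 96.9% for its upstream peak in Het replicate 1.

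The peaks at these genes did not stand apart in strength from their lists. Their median fold was 6.64, compared with 6.85 over all 10376 peaks, and their median rank lay at 48.8% of the list. In WT replicate 3 the medians were 6.93 for the 13 peaks at the 10 genes and 6.80 for the list, in Het replicate 1 6.22 and 6.72, and in Het replicate 2 7.48 and 7.19.

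WT replicate 3, the longest list, decided much of the count. It listed a peak at all 8 genes with any peak, and at 17.9% of all protein-coding genes. Of these 8, Mxd3 and Mxd4 rested on it alone, 2 of 8, compared with 40.1% of all genes with a peak. By p, the first peak of each gene stood at rank 154 for Mnt, 542 for Mlxipl and 1122 for Mga, and then at 2004 for Mxd3, 2093 for Mxi1, 2382 for Mlxip, 2500 for Mxd4 and 2917 for Max. Cut to the 1869 peaks of the second longest list, WT replicate 3 therefore kept Mnt, Mlxipl and Mga, the same 3 genes that WT replicate 2 and Het replicate 1 listed. Without WT replicate 3, 6 genes had a peak in at least 1 library (11.5% of all genes) and 3 in at least 2 (6.99%), again Mnt, Mga and Mlxipl. Het replicate 2 mattered as much for the second count, since it is the other library behind Max, Mlxip and Mxi1: without it, the same 3 genes remained. Without WT replicate 3 the activators kept 4 of 16 combinations (25.0%), the repressors 10 of 48 (20.8%) and the shared partners 1 of 16 (6.25%), compared with 3.2% over all genes. The order of activators and repressors did not hold under every setting. With at most 300 peaks per list the activators had 0 calls and the repressors 5 (9.26%), and with peaks near gene ends only both classes stood at 16.7%.

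**Figure D4:**
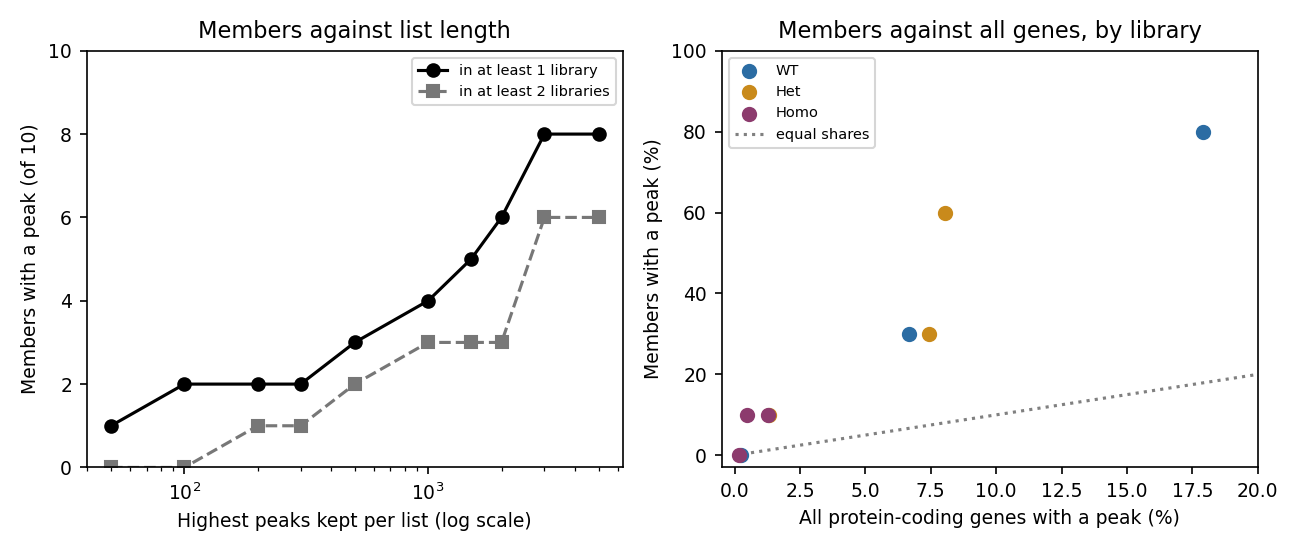
Left, number of the 10 genes with a MYC peak when each list is kept to its highest peaks by p (horizontal axis, log scale); right, percent of the 10 genes against percent of all protein-coding genes with a peak, 1 dot per library, colours marking the genotype (Het replicate 3 and Homo replicate 3 nearly coincide). With 300 peaks per list 2 genes remain, Mnt and Mga, and in WT replicate 3 the share is 80.0% of the 10 genes and 17.9% of all genes.

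Between genotypes, WT libraries had a peak at 0, 3 and 8 of the 10 genes, Het libraries at 3, 6 and 1, and Homo libraries at 1, 0 and 1 (replicates 1 to 3). In any library of a genotype, 8 of the 10 had a peak in WT, 6 in Het and 2 in Homo, compared with 18.3%, 10.4% and 1.43% of all protein-coding genes. All protein-coding genes went the same way, with 0.238%, 6.66% and 17.9% bound in WT, 7.44%, 8.05% and 1.33% in Het, and 0.461%, 0.160% and 1.27% in Homo. The groups overlapped, as WT replicate 1 had none and Het replicate 3 had 1. The mean number of genes with a peak was 3.67 ± 4.04 for WT, 3.33 ± 2.52 for Het and 0.667 ± 0.577 for Homo (SD, n = 3 each). The Homo mean was 3 genes below WT, and WT varied by more than that among its own libraries. The part of list length and depth, whose values are given above, in this difference cannot be told apart from that of genotype: with each list kept to at most its 300 highest peaks the means were 0.333, 0.667 and 0.667. Under that limit the 3 shortest lists (92, 112 and 51 peaks) were still shorter than the rest. With reads thinned to the shallowest input and −log10 p of at least 10, the means were 1.33, 3 and 0.333. With that p limit alone they were 3.67, 3 and 0.667. Homo minus Het was -2.67 genes with thinning and -2.33 with the limit alone. Homo minus WT was -1 with thinning and -3 with the limit alone.

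Presence of a peak was tested for each gene with a two-sided exact permutation test over the 9 libraries and 3 genotypes, adjusted by Benjamini-Hochberg over the 4190 genes with a peak in any library. The lowest exact permutation p that this test can give is 0.0357. It belongs, for instance, to a gene with a peak in every library of 1 genotype and in no other. Over 4190 genes, such a p passes the adjustment only if a large share of them reach it. No gene passed (0.0% called), and this does not show that presence was alike between genotypes. An unadjusted p under 0.05 was reached by 10 of the 4190 genes (0.239%), and the smallest p that occurred was that lowest value. That count moved with single libraries: leaving out WT replicate 1 raised it to 266, leaving out Het replicate 3 to 40 and leaving out WT replicate 3 to 17, and it was 0 with peaks near gene ends only. The adjusted count was 0 in each of these cases, with a smallest adjusted p of 0.359, without WT replicate 1. Among the 10 genes the lowest exact permutation p was that of Mlxipl, 0.357 (adjusted p = 1), with a peak in 2, 2 and 0 libraries of WT, Het and Homo. For Mnt (2, 3 and 1) the exact permutation p was 0.679, and for Mga (2, 2 and 1) it was 1. Absence of a Homo peak was the rule among all genes: 92.5% of the genes with a peak in any library had none in Homo, as had 6 of the 8 here.

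The corepressors and coactivators of the network were read from lists chosen by name with earlier results known, again with counts and no test. Of 11 genes of the SIN3 and NCoR corepressors, through which MXD and MNT proteins repress, 5 had a peak and 4 had one in at least 2 libraries: Sap30, a SIN3 complex subunit, in 3, and Hdac2 (a histone deacetylase) and Arid4a in 2 among those named. Without WT replicate 3, 1 of the 11 remained at 2 or more. Of 10 genes of PRC1.6, the complex that holds MGA, 3 had a peak in at least 2 libraries. Tfdp1, a partner of E2F factors, and Rybp, a Polycomb subunit, each had one in 2 WT, 2 Het and 1 Homo libraries, the same numbers as Mga, and Wdr5 had one in 2 libraries. Of 12 MYC coactivator genes, 3 were bound in at least 2 libraries: Kat2a (an acetyltransferase) and Ruvbl1 (a chromatin-remodelling ATPase) in 4, and Ep400 in 2. Myc, Mycn and Mycl, the MYC genes themselves, had no peak in any library.

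Of 15 targets of MondoA and ChREBP, 5 had a peak in at least 2 libraries and 4 still had without WT replicate 3. Acaca, which encodes acetyl-CoA carboxylase, had one in 2 WT and 2 Het libraries, and Fasn (fatty acid synthase) and Klf10 in 1 WT and 2 Het libraries. None of the 15 had one in Homo, where only 1.43% of all protein-coding genes had one in any library. Of 15 other E-box factors, 3 were bound in at least 2 libraries: Tfap4, a known MYC target, in 2 WT, 3 Het and 2 Homo libraries, and Srebf2 and Clock in 1 WT and 2 Het libraries. Apart from the 3 MYC genes, these 5 lists held peaks in at least 2 libraries at 20.0% to 36.4% of their genes, compared with 10.5% of all protein-coding genes, 60.0% of the 10 network genes and 76.9% of 13 circadian output genes. Without WT replicate 3 the network genes came to 3 of 10 and the MondoA and ChREBP targets to 4 of 15. The 5 lists then ranged from 9.09% to 26.7%, compared with 6.99% of all protein-coding genes.

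Genes with the same presence over the 9 libraries as Mnt numbered 68, as Mga 12 and as Mlxipl 465. Closest to Mnt by the highest fold per library were Gnl3, Slc19a1 and Cdca2, with mean absolute differences of 0.19, 0.22 and 0.25 on the log2 scale over 6 libraries. Closest to Mga over 5 libraries were Pprc1 (0.13), Cep63 and Anapc13 (both 0.21, neighbours that share the same peaks), and closest to Mlxipl over 4 libraries were Nipsnap1 (0.10), Klf9 (0.12) and Saysd1 (0.12), in the same log2 difference.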

How the data were processed

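MYC chromatin immunoprecipitation libraries from 9 tumour samples were analysed, each with its own peak list; the 9 input samples have no list used here. The submitters' processing notes name the build mm10 and the tools MACS2 2.0.10.20131216, Bowtie2 2.2.3, HOMER and Picard; for the peak threshold, no source used here gives a value. The lists have no header. By their layout the authors deposited, per peak, a ratio (the fold over background), −log10 p, −log10 q, an integer score that was not used here, and the summit offset. A deeper library lets a weaker peak pass, so list length can move with depth. The estimated depth of the MYC libraries did not by itself order the lists by length. WT replicate 1 had 14.8 reads per kb and 92 peaks, and Het replicate 2, the shallowest, had 7.80 and 1869 peaks. Het replicate 1, the deepest, had 15.2 and 1713 peaks. The part of depth in list length was not tested.

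Groups were taken from the titles. Summits were assigned to RefSeq spans (GRCm38.p6) within 1 kb; counting summits from 0 or 1 changed no call at the 10 genes. Ranks are by p within a list. Summit reads were solved from fold and p for 99.1% to 100% of the peaks of each list (allowance 0.003 reads) and cover counting only. Promoter windows of opposite strands that overlap were reverse complements in 1841 of 1841 cases. Scripts were tested on simulated data (Python 3.11.15, SciPy 1.17.1). All members and lists were chosen with earlier results of these data known. Named are the 10 genes, up to 3 genes per other list in the most libraries, genes sharing a peak and up to 3 genes of like presence. Alternatives covered peak limits, windows, list length, libraries left out and the replicate block.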

Additional observations from a re-analysis of the deposited data

How the results depend on the processing

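The number of genes with a peak in at least 1 library was 8 and stayed within 1.5 times of it under stricter q, fold or p limits, other windows and peak overlap. It was 2 with the 300 highest peaks per list, 1 with the 50 highest, and 5 after thinning to the shallowest input at −log10 p of at least 10, an alternative that was chosen after seeing the data, as was cutting the longest list. The number in at least 2 libraries was 6, and became 1 with 300 peaks, 0 with 50, 3 with the longest list cut, 3 with thinning, and 3 to 6 when single libraries were left out, with 3 without WT replicate 3 or Het replicate 2. Repressors with a peak numbered 5, and 2 with 300 peaks, 1 with 50, 3 with the longest list cut, 2 with thinning and 3 to 5 with single libraries left out. Activators fell from 2 to 0 and shared partners from 1 to 0 with 300 or 50 peaks. Het minus WT in mean genes per library was -0.333, and turned to 0.333 with 300 peaks, 1.33 with the longest list cut and 1.67 with thinning, ranging from -2.17 to 1.83 with single libraries left out. Homo minus WT was -3, -1.33 with the longest list cut, -1 with thinning and 0.333 with 300 or 50 peaks (single libraries left out: -4.83 to -0.833); Homo minus Het was -2.67, 0 with 300 peaks and 0.333 with 50 peaks (-3.83 to -1.33). WT replicate 1 and Homo replicate 2 listed no peak at the network genes. Leaving out both together therefore could not change the count of libraries of any network gene. It moved Het minus WT to -2.17 and Homo minus WT to -4.5.

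With the replicate number as a block (replicate block), the smallest exact permutation p was 0.111, the lowest that the blocked test can give. No gene could pass that test, so its count of 0 was fixed in advance. Without the block, 0 genes passed under each setting. Same-numbered libraries correlated between -0.252 and 0.256 over genes, above 0.1 in 2 of 9 pairs. Libraries with different numbers correlated between -0.35 and 0.292. Correlations this weak do not decide whether the numbers pair the samples. They also do not measure how many genes with a peak the libraries share: 465 genes had the same presence as Mlxipl, with a peak in 4 libraries.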

Other observations

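Circadian output genes, which carry E-boxes in their control regions, were bound more often than the network genes by count. Of 13, 12 had a peak, 10 in at least 2 libraries (76.9%) and 6 in a Homo library. Over all protein-coding genes these shares were 19.1%, 10.5% and 1.43%. Without WT replicate 3, 8 of the 13 still had one in at least 2 libraries, compared with 6.99% of all protein-coding genes. Nr1d2 (a nuclear receptor of the clock), Dbp and Ciart each had one in 2 WT, 3 Het and 1 Homo libraries, the same numbers as Mnt. Hnf4a, a hepatocyte transcription factor, was listed in 3 Het libraries and in 1 library each of WT and Homo, and Cebpa in 1 each of WT and Het. Dlk1, a fetal liver gene, had one in 1 WT and 2 Het libraries. These differences between lists were not tested.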
